A study of Homo sapiens with 12 samples.

Results

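The genes described here are the zinc finger genes that carry a ZNF number and lie outside chromosome 19. They were chosen as protein-coding genes whose name starts with ZNF and a number, on any chromosome other than 19, X or Y, with a mean of at least 1 TPM over the 12 libraries (TPM is a level per exon length that sums to 1 fixed value in every library). The rule took 173 genes of the 252 with such a name and position, and of the 21462 genes in the tables. The other 79 lay under the limit, and 16 of these had no exon read in any library. The nearest genes inside the limit were ZNF268 at 1.04 TPM, ZNF169 at 1.12 TPM and ZNF594 at 1.16 TPM, and the nearest outside were ZNF572 at 0.993 TPM, ZNF385B at 0.989 TPM and ZNF720 at 0.983 TPM. The 173 genes lay on 19 chromosomes, with 26 on chromosome 16 and 20 on chromosome 7.

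RNA was sequenced from LN229, an established human glioblastoma cell line that the labels give as IDH wildtype, grown in DMEM with fetal bovine serum. The study compared 6 control libraries, labelled as not treated and called vehicle in the study's methods, with 6 libraries of cells given 100 mM metformin, for 5 h by the study's account. Metformin is a biguanide diabetes drug and an inhibitor of mitochondrial complex I. The treatment text in the labels is the same for both groups and names metformin, so the groups were taken from the sample titles and the treatment tag. The study's methods describe the cells as taken from independent experiments, which the labels do not state, and the p-values measure the spread between these libraries.

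Most ZNF genes encode transcription factors of the C2H2 type, in which a zinc ion held by paired cysteines and histidines folds each finger, and an array of fingers reads a stretch of DNA. Many also carry a KRAB domain, which recruits the co-repressor TRIM28 (KAP1) and through it the histone methyltransferase SETDB1, and many members of that class bind transposable elements. Other ZNF genes are unrelated to KRAB repressors and act in ribosome assembly, RNA binding, mitosis or ubiquitin transfer. Reads on exons come mostly from mature mRNA, and reads on introns mostly from unspliced precursor RNA, so both were compared for each gene.

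The 12 libraries held 14331617 to 21836186 exon reads and 620866 to 1556757 intron reads, and metformin replicate 1 was the shallowest in both. In that library 38.1% of the exon reads crossed a splice junction, against 44.7% to 48.1% in the other 11. Of the glioblastoma markers read, VIM, CD44, NES and EGFR were expressed and TNC and FN1 were lower (0.455 to 6.55 TPM). SOX2 and CHI3L1 were at or near 0, with at most 0.271 TPM. Among glial lineage markers, GFAP, MBP and S100B reached at most 0.559 TPM. OLIG2 had 6.63 to 8.97 TPM in control and 2.67 to 4.47 TPM in metformin. Markers of other cells (PTPRC, AIF1, PECAM1, VWF, EPCAM, CDH1 and SYT1) reached at most 0.369 TPM. CD68 (9.23 to 27.9 TPM) and RBFOX3 (2.51 to 7.35 TPM), markers of macrophages and neurons, were detected in both groups.

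The promoter windows of 5 members are shown because they hold letters searched in all members. Of the 173 members, 144 matched a RefSeq promoter by symbol (build GRCh38.p14, 250 bases before to 50 after the start). CCGGAAGT, an ETS-type sequence, was found on either strand in 28 of the 144 windows (19.4%), against 9.76% of the windows of all 9049 tested genes with one. In the ZNF genes of chromosome 19, chosen by the same name rule and limit, it was in 31 of 101 windows (30.7%). TGACGTCA, the cyclic AMP response element, was in 7 windows (4.86%, against 3.45% of all and 4.95% on chromosome 19). ACTACAAT, the core of a sequence known to be bound by ZNF143, was in 4 (2.78%, against 1.01% and 2.97%). ACTACAAT was taken as a shorter form of that sequence after a longer form had been searched and its count seen. Of 7 sequences searched, the other 4 were CACGTG (an E-box) in 7.64% of the members' windows against 10.6%, AAGATGGC (YY1 type) in 4.17% against 5.88%, TGANTCA (AP-1 type) in 4.17% against 4.39%, and the palindromic NRF1 sequence in 2.78% against 2.42%. The capitals mark CCGGAAGT or its reverse complement in ZNF397 (chr18:35240784-35241083, + strand), ZNF239 (chr10:43574567-43574866, - strand) and ZNF622 (chr5:16465751-16466050, - strand). In ZNF143 (chr11:9460762-9461061, + strand) they mark TGACGTCA, and in ZNF277 (chr7:112206445-112206744, + strand) the reverse complement of ACTACAAT and then CCGGAAGT.
ZNF397: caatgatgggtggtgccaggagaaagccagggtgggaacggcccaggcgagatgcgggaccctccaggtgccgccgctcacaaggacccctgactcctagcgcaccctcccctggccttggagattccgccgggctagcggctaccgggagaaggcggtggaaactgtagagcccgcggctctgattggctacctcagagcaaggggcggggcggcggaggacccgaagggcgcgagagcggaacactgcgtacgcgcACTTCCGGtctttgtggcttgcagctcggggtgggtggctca
ZNF239: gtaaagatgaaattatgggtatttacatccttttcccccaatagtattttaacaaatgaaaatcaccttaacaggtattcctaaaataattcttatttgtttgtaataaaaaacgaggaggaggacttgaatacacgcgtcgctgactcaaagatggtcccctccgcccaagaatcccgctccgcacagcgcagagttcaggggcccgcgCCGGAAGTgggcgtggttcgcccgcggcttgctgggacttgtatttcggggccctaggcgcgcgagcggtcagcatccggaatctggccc
ZNF622: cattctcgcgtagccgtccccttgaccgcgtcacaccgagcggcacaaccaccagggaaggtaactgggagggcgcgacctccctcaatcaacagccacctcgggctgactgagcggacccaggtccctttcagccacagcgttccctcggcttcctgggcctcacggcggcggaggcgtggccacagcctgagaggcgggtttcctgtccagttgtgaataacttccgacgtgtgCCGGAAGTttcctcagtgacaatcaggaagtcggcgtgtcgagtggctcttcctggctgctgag
ZNF143: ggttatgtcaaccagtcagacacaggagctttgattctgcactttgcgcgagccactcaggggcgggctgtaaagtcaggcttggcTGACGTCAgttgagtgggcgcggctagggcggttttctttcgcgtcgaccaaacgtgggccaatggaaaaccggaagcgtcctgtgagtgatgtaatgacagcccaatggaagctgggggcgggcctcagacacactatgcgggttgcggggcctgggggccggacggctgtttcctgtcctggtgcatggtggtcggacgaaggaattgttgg
ZNF277: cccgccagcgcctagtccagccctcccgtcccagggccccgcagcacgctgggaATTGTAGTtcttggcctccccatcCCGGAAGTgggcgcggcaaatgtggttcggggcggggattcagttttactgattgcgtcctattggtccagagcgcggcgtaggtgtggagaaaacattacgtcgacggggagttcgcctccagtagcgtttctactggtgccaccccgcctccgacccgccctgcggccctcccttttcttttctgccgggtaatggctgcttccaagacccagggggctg
ZNF397 and ZNF239 were among the members that fell most and ZNF622 among those that rose most, so CCGGAAGT stood in windows of both kinds. Of the windows of members that fell in exon reads 20.5% held it (16 of 78), and of those that rose 30.4% (7 of 23). Among members not called in exon reads 11.6% did (5 of 43). TGACGTCA was in 1 of 78 windows of members that fell, in 3 of 23 of those that rose and in 3 of 43 of those not called. A match is a description of the letters and not a binding site.

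Exon reads of the ZNF genes fell more often than they rose. With edgeR's quasi-likelihood test on exon reads, scaled by the trimmed mean of M values (TMM) and adjusted by Benjamini-Hochberg over all genes, 94 of the 173 members were lower in metformin (54.3%) and 28 were higher (16.2%). Over all 11313 genes tested, 25.9% were lower and 24.5% higher. The median log2 fold change was -0.49 over the members and 0.03 over all genes. Scaling by total exon reads moved the median of all genes to -0.31 and the calls among the members to 111 lower and 15 higher, where 43.8% of all genes were lower and 10.7% higher. All 173 members had a control mean of at least 1 TPM and 153 also had a metformin mean of at least 1 TPM, so 20 were members through their control values alone. Among the 153, 75 were lower and 28 higher (49.0% and 18.3%), against 24.7% and 24.1% of the 10756 genes that met the limit in both groups.

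In TPM, whose fixed sum per library is its only scaling and to which no TMM factor was applied, all 6 metformin libraries lay below all 6 control libraries for 100 members (57.8%) and above them for 8 (4.62%). The same held for 37.3% and 4.68% of all genes. By limma on log2(TPM + 1), 108 members were lower and 11 higher, where 41.8% of all genes were lower and 8.0% higher. Rescaling TPM by the median ratio gave 94 lower and 27 higher among the members, and leaving out metformin replicate 1 gave 114 and 22 (49.3% and 17.1% of all genes). Median-ratio scaling put 25.5% of all genes lower and 23.4% higher. In these bulk samples fewer cells that express a gene and less RNA per cell cannot be told apart.

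Together the 173 genes held a small part of the library. They took 0.425% to 0.510% of all exon reads in the control libraries and 0.349% to 0.401% in 5 metformin libraries, with 0.229% in metformin replicate 1, so the groups did not overlap. Of the intron reads they took 0.896% to 0.997% in control and 0.754% to 0.786% in the same 5 metformin libraries, but 1.20% in metformin replicate 1. ZNF652 alone gave 2676 of the intron reads in that library, 35.9% of the members' intron reads there, against 3.88% to 12.7% in the other 11. Without ZNF652 the members' intron share was 0.823% to 0.959% in control and 0.667% to 0.769% in all 6 metformin libraries. Members had 10.4 to 14.97 intron reads per 100 exon reads in control and 9.81 to 14.9 in metformin without ZNF652, and these ranges overlapped.

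**Figure D1:**
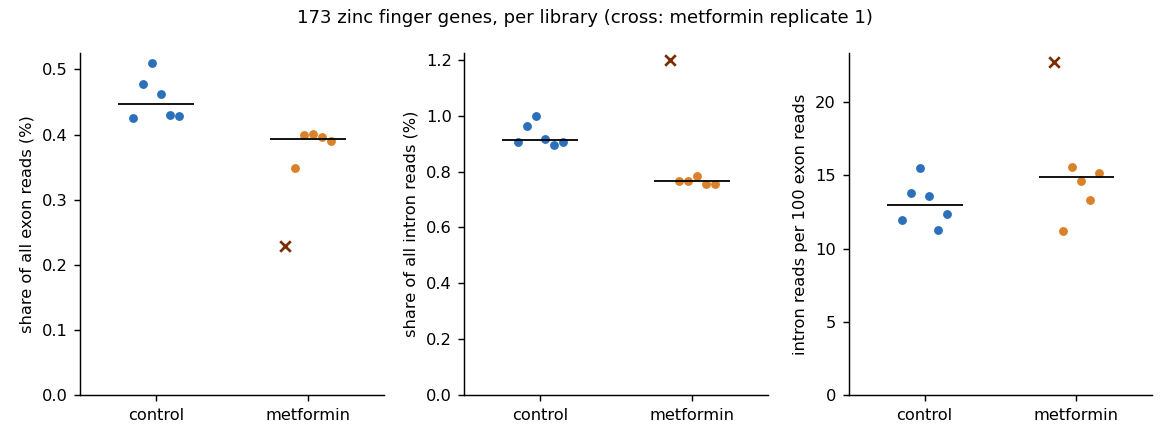
Share of all exon reads (left, %), share of all intron reads (middle, %) and intron reads per 100 exon reads (right) of the 173 genes, 1 point per library with the group median as a line. Metformin replicate 1, the cross, had the lowest exon share (0.229%) and the highest intron share (1.20%).

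The 8 members with the largest decrease in exon reads, among those whose TPM did not overlap, fell by 2.38 to 3.44 on the log2 scale. All of these 8 except ZNF691 had a metformin mean under 1 TPM. They were therefore members through their control values alone. ZNF397, on chromosome 18 (35241030 to 35267133), a SCAN-type zinc finger gene, had 2.91, 3.43 and 4.34 TPM in control (lowest, median and highest of 6) and 0.111, 0.243 and 0.388 TPM in metformin, and its exon reads changed by -3.44 ± 0.19 (log2, SE, adjusted p = 2.4e-08 by edgeR). ZNF239, known as MOK2, a binder of DNA and RNA, had 9.37, 11.2 and 11.5 TPM in control and 0.107, 1.00 and 1.55 TPM in metformin (-3.12 ± 0.24, adjusted p = 3.37e-07 by edgeR). ZNF691, on chromosome 1, fell from a median of 13.6 TPM (12.7 to 14.5) to 1.25 TPM (0.354 to 1.59). In each of the 3 the highest metformin library was far below the lowest control library.
ZNF594 fell from a median of 2.09 to 0.206 TPM and ZNF70 from 2.11 to 0.206 TPM. ZNF133, a gene described as a transcriptional repressor, fell from 3.18 to 0.340 TPM, ZNF485 from 5.99 to 0.662 TPM, and ZNF319 from 6.46 to 1.14 TPM. Their log2 fold changes in exon reads ran from -3.17 for ZNF594 to -2.38 for ZNF319. ZNF594 held 0 to 3 junction reads per library and ZNF70 0 to 5, too few to compare on junction reads. ZNF239 and ZNF485 lie on the same stretch of chromosome 10, where ZNF239 ends at 43574618 and ZNF485 starts at 43606419 on the other strand.

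Members that rose were fewer and most stood at a higher level. ZNF703, an oncogene amplified in luminal breast cancer, had 8.88, 10.4 and 11.2 TPM in control and 50.4, 54.8 and 66.7 TPM in metformin, with exon reads changed by 2.93 ± 0.22 (log2, SE, adjusted p = 2.87e-07 by edgeR). ZNF503, its closest relative, which also acts as a repressor, had 7.65, 8.20 and 8.99 TPM in control and 12.7, 31.3 and 44.3 TPM in metformin (2.27 ± 0.12, adjusted p = 1.51e-08 by edgeR). Both are short genes with 2 exons in the files, so neither had enough intron reads to test. These relatives rose together. Like ZNF34, ZNF622, ZNF263, ZNF408, ZNF394 and ZNF668, they were picked from called members whose TPM groups did not overlap.
ZNF34, on chromosome 8, had 2.98, 3.48 and 4.11 TPM in control and 8.06, 14.2 and 20.5 TPM in metformin (2.44 ± 0.11, adjusted p = 4.89e-09 by edgeR). The nearest expressed gene upstream on the same strand is RPL8, a ribosomal protein gene 2420 bases away. ZNF622, a cytoplasmic factor of 60S ribosome maturation, rose from 54.8 to 59.6 TPM in control to 88.9 to 103 TPM in metformin.
ZNF263, ZNF408, ZNF394 and ZNF668 rose by 1.15, 0.98, 0.98 and 0.95 on the log2 scale in exon reads, with TPM ranges that did not overlap. Counted on junction reads, ZNF263 changed by 0.05 (adjusted p = 0.93) and ZNF408 by 0.61 (adjusted p = 0.085, both edgeR), and neither passed. ZNF143, the activator of small nuclear RNA genes, rose by 1.44 (adjusted p = 5.4e-06 by edgeR) from 12.4 to 17.0 TPM in control to 32.3 to 39.0 TPM in 5 metformin libraries, while metformin replicate 1 held 9.36 TPM. Its paralogue ZNF76 fell, as described with the introns.

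**Figure D2:**
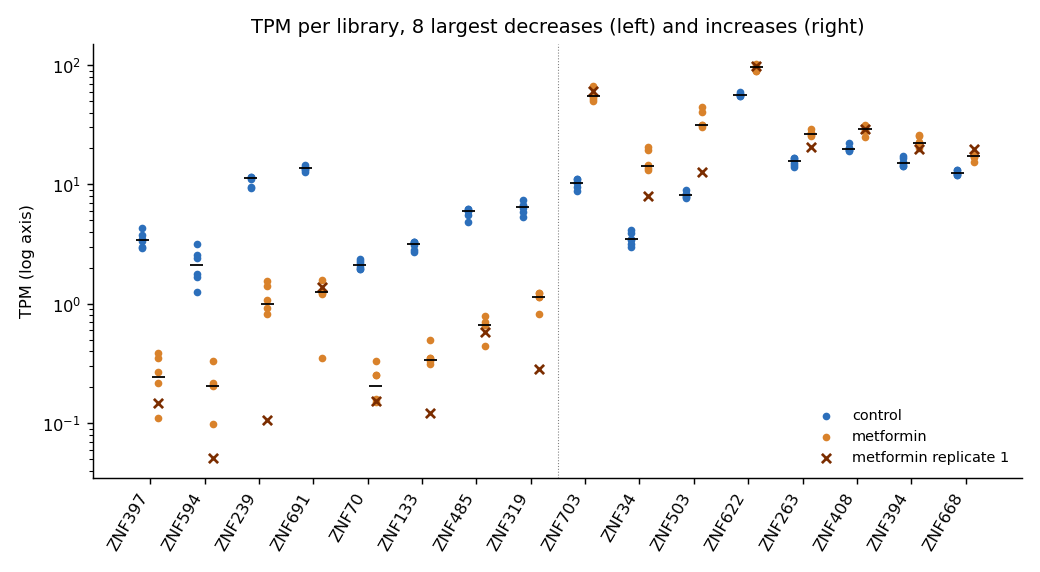
TPM per library on a log axis for the 8 largest decreases (left of the dotted line) and the 8 largest increases in exon reads among called members whose groups do not overlap, with medians as short lines. In ZNF691 all metformin libraries are at or below 1.59 TPM and all control libraries at or above 12.7 TPM.

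Among members with a known role outside DNA-binding repression, the ribosome-linked genes did not move together. ZNF622 rose, while ZNF598, the ubiquitin ligase that marks stalled ribosomes, had 66.3, 73.5 and 78.7 TPM in control and 38.8, 59.9 and 68.9 TPM in metformin, with an exon change of 0.04 ± 0.07 (adjusted p = 0.65 by edgeR). ZNF593, a pre-60S export factor known from its yeast counterpart, had 82.0 to 108 TPM in control and 43.1 to 63.9 TPM in 5 metformin libraries, but 147 TPM in metformin replicate 1. Its exon change was 0.14 with that library and -0.66 without it (adjusted p = 0.81 and 0.0017, both edgeR), and only 50.3% of its exon reads were unique to it.
ZNF330, a nucleolar protein, had an exon change of -0.17 (adjusted p = 0.25). ZNF207 (BUGZ), which loads BUB3 at kinetochores, rose by 0.68 (adjusted p = 7.42e-06), from 46.2 to 60.6 TPM in control to 65.2 to 74.1 TPM in 5 metformin libraries, with 28.99 TPM in metformin replicate 1. ZNF664, the third of the most abundant members, changed by 0.07 (adjusted p = 0.83, all edgeR), and by 0.26 without metformin replicate 1 (adjusted p = 0.042 by edgeR). Of the 6 members with the highest mean TPM, 2 rose and 4 did not pass. Without that library ZNF664 also rose and ZNF593 fell. With total exon reads alone as the scale, ZNF598 (-0.32, adjusted p = 0.0013) and ZNF330 (-0.49, adjusted p = 0.028) were lower by edgeR.

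Other regulators split in both directions. ZNF335, a microcephaly gene needed in neural progenitors, rose by 1.02 (adjusted p = 1.44e-07), ZNF292 by 1.07 (adjusted p = 0.013) and ZNF384, a fusion partner in leukaemia, by 0.53 (adjusted p = 6.9e-05). ZNF346, a binder of double-stranded RNA, fell by 1.42 on the log2 scale (adjusted p = 1.43e-05), ZNF462 by 1.05 (adjusted p = 0.0020), and ZNF277 by 0.81 (adjusted p = 8.84e-06). The oncogene ZNF217 fell by 0.91 (adjusted p = 0.032) and lost the call when any of 5 libraries was left out, with adjusted p of 0.051 to 0.066. ZNF213 fell by 0.87, ZNF830 by 0.77, ZNF516 by 0.59, ZNF202 by 0.51 and ZNF395 by 0.46, and on junction reads ZNF516 changed by -0.08 (adjusted p = 0.92) and ZNF395 by -0.67 (adjusted p = 0.11), without passing. ZNF830 held 0 to 2 junction reads per library, too few to compare. The rises of ZNF292 and ZNF384, and those of ZNF385A, ZNF592, ZNF496, ZNF644 and ZNF697, did not pass when only total exon reads set the scale. ZNF644 (adjusted p = 0.045) lost the call without any of 11 libraries (adjusted p of 0.051 to 0.090) and had an adjusted p of 1.84e-05 without metformin replicate 1 (all edgeR).
ZNF532, ZNF592 and ZNF687, which share a complex with ZMYND8, did not change alike. ZNF687 fell by 1.02 (adjusted p = 0.00023), ZNF592 rose by 0.48 (adjusted p = 0.00019), and ZNF532 changed by -0.31 (adjusted p = 0.25, all edgeR). ZNF131, ZNF148, ZNF281, ZNF326, ZNF609 and ZNF638 had exon changes between -0.27 and 0.29 and none passed. Without metformin replicate 1, ZNF131 (0.48, adjusted p = 0.00016), ZNF281 (0.39, adjusted p = 0.0091) and ZNF638 (0.21, adjusted p = 0.026, all edgeR) were higher. In 10 of the uncalled genes named here the sign turned with another scale, another read set or 1 library left out.

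Members with a KRAB match fell in a larger share. The KRAB domain was taken as present where a strict pattern for its conserved core was found in the GENCODE 29 coding sequence, which 58 of the 173 members met. The pattern misses diverged KRAB domains, such as that of ZNF133, and how many it misses was not counted. Members without a match, such as the rising ZNF34, ZNF263 and ZNF394, were therefore not shown to lack the domain. KRAB members below are those with a match, and the contrast with the others depends on the pattern. Of the 58, 41 were lower in exon reads and 4 higher (70.7% lower, median -0.84), and of the other 115, 53 were lower and 24 higher (46.1% lower, median -0.21). Among the first, ZNF485 fell by 2.78, ZNF197 by 1.54, ZNF23 by 1.12 and ZNF445, a regulator of genomic imprinting, by 0.91 on the log2 scale. Only 5.89% of ZNF23's exon reads were unique to it, so its value is uncertain. Without metformin replicate 1 the counts were 42 lower and 6 higher with a match, and 57 and 31 without one, where 34.3% of all genes were lower and 32.4% higher.

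KRAB members were also expressed at lower levels, with a median of 4.60 TPM against 9.64 TPM in the others. Between 1 and 3 TPM, 12 of 14 KRAB members and 13 of 18 others were lower, where 33.9% of all 1401 genes at that level were. Between 3 and 6 TPM the counts were 17 of 23 and 14 of 21 (41.2% of 1281 genes), and between 6 and 12 TPM 8 of 12 and 16 of 29 (37.3% of 1769 genes). At 12 TPM and over, 4 of 9 KRAB members and 10 of 47 others were lower, where 18.5% of 6862 genes were. In that top range 18 of the 47 others rose, where 29% of the 6862 genes did. The share that fell was above that of all genes in every range, and the gap to all genes was narrowest in the members without a match at 12 TPM and over. Level here is the mean TPM over both groups, so a fall itself moves a gene to a lower range, in all genes as in members. The 20 members that met the limit through control alone were included. Counts by range and by KRAB match were not repeated without them.

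**Figure D3:**
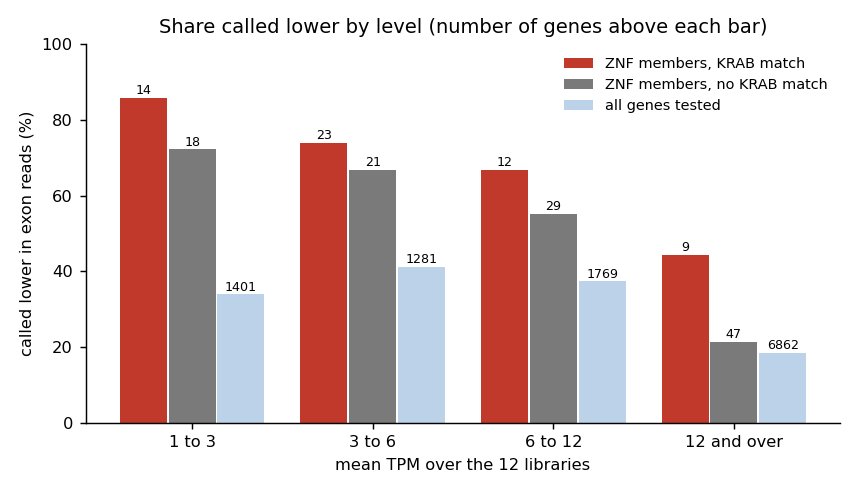
Share of genes called lower in exon reads (%) by mean TPM, for KRAB members, other members and all genes tested, with the number of genes above each bar. At 1 to 3 TPM the shares are 85.7%, 72.2% and 33.9%, and at 12 TPM and over 44.4%, 21.3% and 18.5%.

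The number of fingers varied from 0 to 33 with a median of 8, counted as C2H2 matches in the coding sequence. ZNF462 had the most, and ZNF330, ZNF503, ZNF703 and ZNF839 had no match to the pattern. Of the 40 members with 13 or more fingers, 29 were lower and 7 higher (72.5% lower), and of the 36 with 1 to 4 fingers, 17 were lower and 6 higher (47.2%). The 2 classes between had 23 of 47 (48.9%) and 24 of 46 (52.2%) lower. Over all genes tested 25.9% were lower and 24.5% higher. Levels differed too, with median TPM of 11.9 at 1 to 4 fingers, 7.39 at 5 to 8, 5.83 at 9 to 12 and 5.88 at 13 or more. Finger number was not separated from level or from the KRAB match.

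Position in the genome was compared because the sources do not say whether reads were assigned by strand, so reads of overlapping genes cannot be told apart. Of the 49 members that overlap no other GENCODE gene, 28 were lower and 9 higher (57.1% lower), and of the 124 that overlap one, 66 and 19 (53.2%). Overlap with a gene of at least 1 TPM split them more. Of the 28 members with such an overlap, 12 were lower and 5 higher (42.9% lower, median -0.14). Of the 145 without one, 82 were lower and 23 higher (56.6% lower, median -0.53). Of the 21 members whose start lies within 1 kb of the start of an expressed gene on the other strand, 7 were lower and 9 higher (33.3% lower). Of the other 152, 87 were lower and 19 higher (57.2%). Over all genes tested 25.9% were lower and 24.5% higher, and all genes with such a start were not counted apart. The median level was 9.64 TPM in the 21 and 6.33 TPM in the 152. Some divergent pairs of members moved in opposite directions. ZNF668, described in DNA repair, rose by 0.95 while ZNF646, across the shared start region, fell by 1.48 (adjusted p = 0.0029 and 1.34e-07, both edgeR). ZNF425 rose by 0.63 while its divergent neighbour ZNF398 fell by 0.95 (adjusted p = 0.011 and 5.33e-05, both edgeR).

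Related lists gave a frame for these counts. Of 60 genes of other C2H2 families outside chromosome 19 (ZBTB, ZSCAN, ZKSCAN and ZFP), 27 were lower and 12 higher in exon reads (45% and 20%, median -0.39). Of 113 ZNF genes on chromosome 19, 75 were lower and 10 higher (66.4% and 8.85%, median -0.84), and 74 of those 113 had a KRAB match, of which 54 were lower. Of 26 partners of KRAB repression, 5 were lower and 10 higher, with a median of 0.15. TRIM28 rose from 533 ± 6.05 to 678 ± 31.0 TPM (SD, n = 6 each; exon change 0.81, adjusted p = 0.0018 by edgeR), whereas SETDB1 fell from 17.4 ± 2.26 to 5.58 ± 1.59 TPM (-1.28, adjusted p = 1.29e-07 by edgeR). MORC2 and EHMT1 also fell, by 0.76 and 0.66 on the log2 scale. The differences between lists were not tested.

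**Figure D4:**
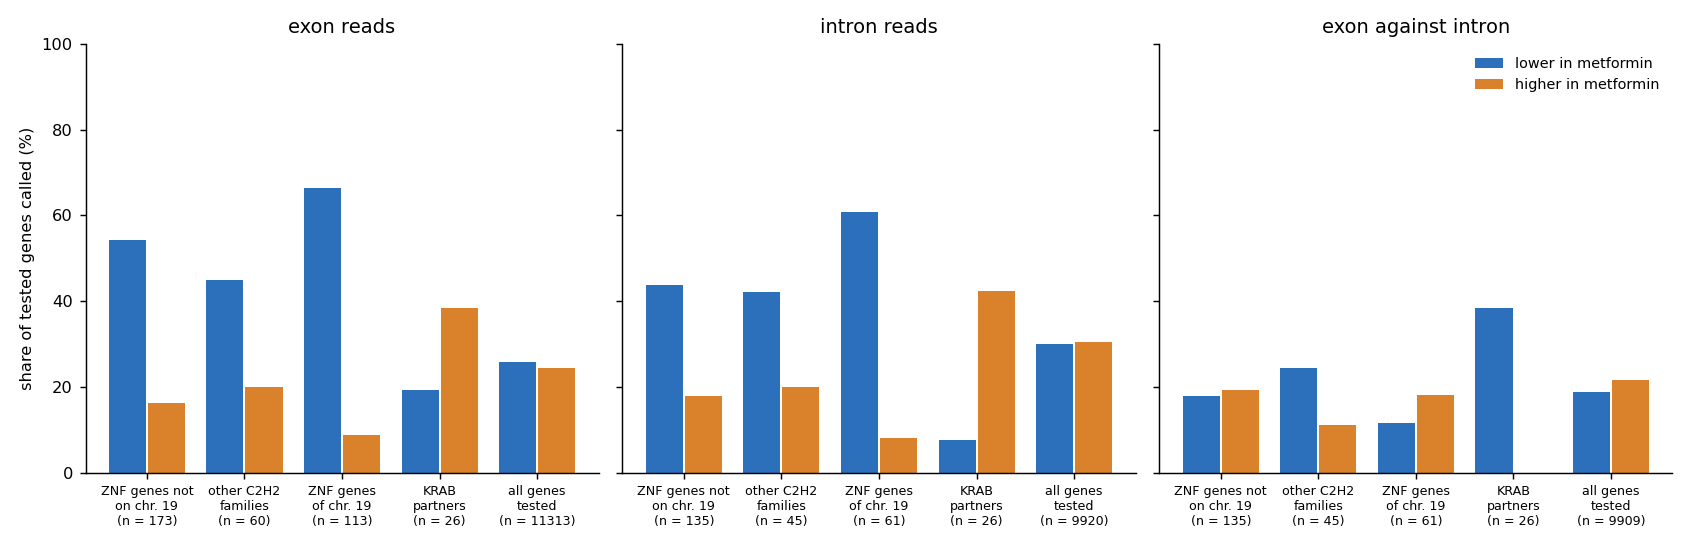
Share of tested genes called lower (blue) or higher (orange) in metformin (%), by exon reads, intron reads and exon against intron reads, for 5 gene lists, with the number tested under each. For the ZNF genes outside chromosome 19 the shares lower and higher are 54.3% and 16.2% in exon reads, 43.7% and 17.8% in intron reads, and 17.8% and 19.3% for exon against intron.

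Intron reads also fell more often than they rose. A mean of at least 10 intron reads per library was met by 135 members, and 38 were not tested. By edgeR, 59 of the 135 were lower in metformin and 24 higher (43.7% and 17.8%), against 29.9% and 30.5% of the 9920 genes tested, with medians of -0.38 and 0.05. With the exon scaling factors the members' counts were 47 and 27, where 23.5% of all genes were lower and 33% higher. Of the 135, 21 reached 10 intron reads in the control mean alone, and among the 113 that reached it in both groups, 38 were lower and 23 higher (33.6% and 20.4%, against 26.7% and 31.6% of all 9084 such genes). Of the 43 tested KRAB members 29 were lower and 3 higher, and of the other 92, 30 and 21.

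Exon and intron changes went the same way in most members. Their signs were equal in 99 of 135, and across these genes Pearson's r was 0.68 and Spearman's rho 0.62, against 0.60 and 0.54 across all 9920 genes. These are descriptions across genes measured in the same libraries. Both readouts were lower in 49 members (36.3%, where 14.2% of all genes were) and both higher in 11 (8.15%, where 15.2% were). A fall in exon reads without a call on introns was seen in 17 members (12.6%), ZNF217, ZNF277 and ZNF445 among them. The share of all genes in this class, and the share of all genes with equal signs, were not counted. Called changes in opposite directions were seen in 8 members (5.93%, where 3.5% of all genes were).
Of these 8, ZNF629, ZNF33B, ZNF48, ZNF706 and ZNF782 were lower in exons and higher in introns, and ZNF10, ZNF316 and ZNF496 the reverse. On junction reads ZNF629 (-1.62, adjusted p = 0.012), ZNF782 (-0.86, adjusted p = 0.049) and ZNF10 (1.67, adjusted p = 0.011, all edgeR) also passed. ZNF33B (-0.19, adjusted p = 0.42), ZNF48 (-0.35, adjusted p = 0.48), ZNF706 (-0.08, adjusted p = 0.91), ZNF496 (0.17, adjusted p = 0.77) and ZNF316 (-0.05, adjusted p = 0.95, all edgeR) did not. ZNF239 had 48, 65.5 and 98 intron reads in control and 0, 2.5 and 5 in metformin, and changed by -4.64 ± 0.33 in introns (log2, SE, adjusted p = 6.79e-08 by edgeR). ZNF691 and ZNF397 fell by 3.27 and 3.22 in introns, close to their exon changes. In these 3 genes the intron groups did not overlap. Each averaged under 10 intron reads in metformin and met the limit for introns through control alone.

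**Figure D5:**
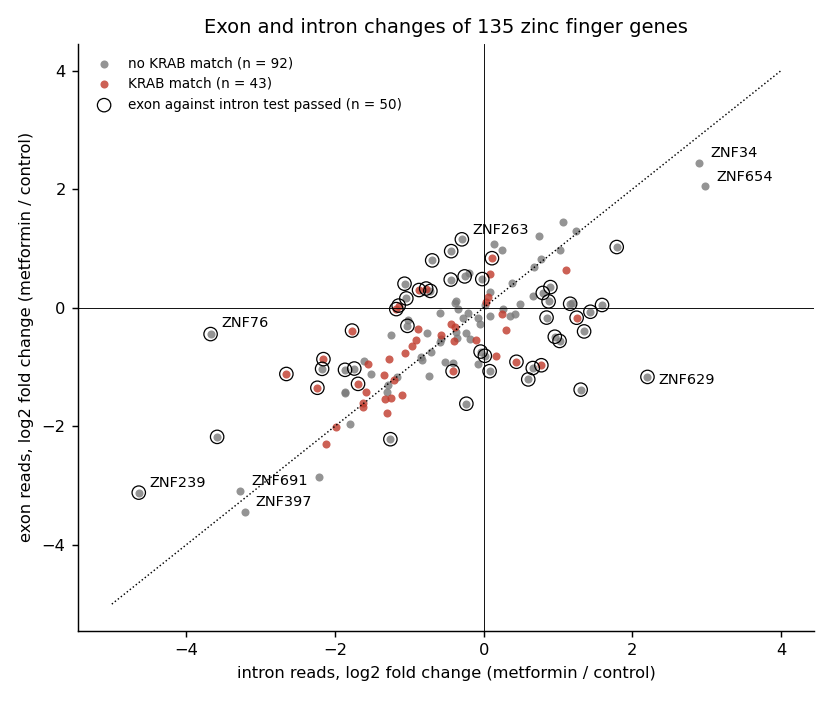
Log2 fold change in exon reads against that in intron reads for the 135 tested members, with KRAB matches in red and the 50 members that passed the exon against intron test circled; the dotted line marks equal change. ZNF76 lies far above the line and ZNF629 far below it.

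The change in exon reads was then set against the change in intron reads within each gene, by an interaction term in edgeR with a term for each library. Of the 135 members, exon reads rose relative to intron reads in 26 and fell in 24 (19.3% and 17.8%), where 21.7% and 18.9% of 9909 genes did, so the shares were near the background. The median difference was 0.01 in the members and 0.00 over all genes. Without metformin replicate 1 the counts were 41 and 35, and the shares over all genes 31.3% and 32.8%. With 1 scaling factor per library for both readouts they were 15 and 25, with the median of all genes at -0.14 and 14.5% of all genes above and 20.4% below.

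The largest difference towards exons was in ZNF76. It had 51, 65 and 101 intron reads in control and 2, 3 and 9 in metformin, a change of -3.67, while its exon reads changed by -0.44 ± 0.07 (log2, SE), and the difference was 3.25 ± 0.32 (adjusted p = 5.7e-06 by edgeR). TPM of ZNF76 was 8.38, 9.27 and 10.6 in control and 2.97, 5.50 and 6.69 in metformin. Thus the intron reads of this paralogue of ZNF143 nearly vanished while most of its exon reads remained. ZNF239 (1.63), ZNF23 (1.60), ZNF697 (1.47), ZNF496 (1.46), ZNF263 (1.42), ZNF839 (1.40) and ZNF189 (1.32) followed.
ZNF697 passed at adjusted p = 0.035 and lost the call without any of 8 libraries (adjusted p of 0.051 to 0.090), and ZNF263 did not pass on junction reads (0.29, adjusted p = 0.37, all edgeR). ZNF189 and ZNF697 were at 1.16 and 1.30 with 1 scaling factor per library (adjusted p of 0.075 and 0.097, edgeR), and ZNF839 at 1.04 by limma on the log2 ratio (adjusted p = 0.11), and none of the 3 passed there. ZNF839 fell in both readouts (-2.18 in exons and -3.58 in introns) and overlaps CINP. ZNF23 had no intron read unique to it.

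The largest difference towards introns was in ZNF629, at -3.43 ± 0.38 (log2, SE, adjusted p = 1.28e-05 by edgeR). Its TPM was 24.2, 27.8 and 36.4 in control and 5.60, 10.9 and 12.2 in metformin, while its intron reads were 4, 8 and 21 in control and 6, 39.5 and 67 in metformin. The intron groups overlapped because metformin replicate 1 held 6 reads. ZNF782 (-1.81), ZNF706 (-1.78), ZNF33B (-1.74), ZNF687 (-1.67), ZNF48 (-1.66) and ZNF451 (-1.53) were also below.
ZNF451, a SUMO ligase, had 215, 232 and 248 intron reads in control and 251, 542 and 622 in metformin, with an exon change of -0.07 (adjusted p = 0.73 by edgeR). ZNF652 had a difference of -1.83, and its intron change of 1.31 rested on the 2676 reads of metformin replicate 1, since it was 0.06 without that library. The difference lost the call without control replicate 2 or 3 (adjusted p of 0.051 in each, edgeR). With junction reads in place of exon reads it was -0.59 (adjusted p = 0.50), and the exon change of ZNF652, -1.38 on all exon reads, was -0.25 on junction reads (adjusted p = 0.62, both edgeR). ZNF706 lost its exon call without any of 4 libraries (adjusted p of 0.053 to 0.056, edgeR). Only 20.5% of the intron reads of ZNF48 were unique to it, and its difference did not pass on unique reads (-0.64, adjusted p = 0.22 by edgeR).

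The largest intron increases were in ZNF654 (2.98 ± 0.23), ZNF34 (2.90 ± 0.31), ZNF629 (2.20 ± 0.36), ZNF335 (1.79 ± 0.14), ZNF24 (1.59 ± 0.45) and ZNF451 (1.44 ± 0.14). ZNF654 had 6, 9 and 14 intron reads in control and 26, 63 and 93 in metformin. It overlaps CGGBP1 and none of its intron reads was unique to it, so the gene they came from cannot be told apart. Its exon reads, all unique, rose by 2.05, from 4.13 to 8.83 TPM in control to 13.4 to 29.8 TPM in 5 metformin libraries, with 2.67 TPM in metformin replicate 1. ZNF335 had 74, 87 and 123 intron reads in control and 125, 259.5 and 341 in metformin, with no overlap, and rose in both readouts.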

How the data were processed

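Total RNA of LN229 cells was extracted and 12 libraries were sequenced, 1 file per library. The study's methods name an mRNA library kit, so the libraries were made from mRNA and not from total RNA. Intron reads were 4.15% to 7.48% of exon plus intron reads in these libraries. The authors deposited per gene TPM and RPKM, whole read counts (exon, exon-exon junction and intron reads, total and unique to the gene) and the fraction of unique and of intron reads. No source read for this work names the aligner, the counter, their versions or strand use. The submitters' notes name a mouse build, but 21377 of 21462 gene identifiers were in human GENCODE 29 and 21361 of them lay over the same gene. Files were grouped by their labels. The deposited counts were tested with edgeR 4.0.16 (glmQLFit, TMM), with a mean of at least 1 TPM and, for introns, at least 10 intron reads. TPM was tested with limma 3.58.1 on log2(TPM + 1), and RPKM was an alternative, as were DESeq2 1.42.0, other scalings, filters and read sets, a replicate block, and each library left out. The fractions were not tested. A call is a Benjamini-Hochberg adjusted p under 0.05 over all genes tested, in R 4.3.3. Scripts were tested on simulated data. Genes were named if they have a well-known role, are among the 6 most abundant, the 8 largest exon changes in each direction, the 8 largest exon against intron differences or the 6 largest intron changes among called members, lie next to the TPM limit, or share a locus with these. Members and lists were chosen with earlier results of these data known. Counting error limits genes of few reads.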

Additional observations from a re-analysis of the deposited data

Results flagged for a closer look

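A library was singled out where it lay far from the other 5 of its group, by Dixon's criterion for 6 values. Chance alone marks about 1 in 20 groups, 9 of the 180 examined here, and 17 were marked, 13 of them for metformin replicate 1. In TPM that library held 9.36 for ZNF143, 29 for ZNF207, 1.15 for ZNF23, 0.235 for ZNF268, 19.1 for ZNF330, 19.6 for ZNF335, 18.5 for ZNF384 and 147 for ZNF593. ZNF593 alone of these was high in it. Its intron reads, counted without scaling for depth, were 2676 for ZNF652, high, and 29 for ZNF782, low. Relative to the depth of this shallowest library, the 29 reads of ZNF782 were not low. For the 173 genes together it had 0.229% of all exon reads, 1.20% of all intron reads and 22.7 intron reads per 100 exon reads. In other libraries, ZNF346 had 11.4 TPM and ZNF830 had 21.0 TPM in control replicate 3, ZNF839 had 4.52 TPM in control replicate 5, and ZNF691 had 0.354 TPM in metformin replicate 6.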

How the results depend on the processing

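The direction of the counts held under most alternatives, and those that moved them by more than 1.5 times are given here; the cause was not tested unless fewer genes or libraries entered. By TPM a limit of 5 left 56 of 110 members lower, from fewer genes tested, where 39.5% of all genes were. Median-ratio scaling gave 27 higher, where 23.4% of all genes were. By exon reads, total exon reads alone gave 15 higher, 0 with a KRAB match and 15 without, where 10.7% of all genes were higher. With edgeR this 0 compares with 4 at TMM scaling and 5 by DESeq2. Junction reads gave 17 higher and 62 lower, with 27 KRAB members lower and 14 others higher and 35 lower, from fewer reads per gene, where 15.5% of all genes were lower and 12% higher. By intron reads a mean of at least 50 left 24 of 63 members lower, from fewer genes tested, where 29.3% of all genes were. For exon against intron reads, 1 scaling factor gave 15 above, where 14.5% of all genes were. A mean of at least 50 of each left 15 of 62 members above and 15 below, from fewer genes tested. There 22.3% of all genes were above and 21.2% below.

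Leaving out each library in turn gave 101 to 114 members lower and 11 to 22 higher by TPM, 91 to 99 and 24 to 37 by exon reads, 53 to 72 and 23 to 28 by intron reads, and 20 to 35 below and 20 to 41 above for exon against intron reads. Among KRAB members it gave 41 to 43 lower and 4 to 6 higher in exon reads, and among the others 49 to 57 and 20 to 31. The highest counts of exon against intron calls, 41 and 35, came without metformin replicate 1. Over all genes, leaving out that library gave 49.3% lower and 17.1% higher by TPM. By exon reads it gave 34.3% and 32.4%, and by intron reads 36.9% and 37.1%. For exon against intron reads it gave 32.8% below and 31.3% above. Shares of all genes with each other library left out are not given here. The KRAB alternatives were chosen after seeing the data.

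Replicate numbers gave no pairing, since same-numbered libraries had TPM deviations correlated from -0.65 to 0.72. With the replicate number as a block, 110 members were lower and 11 higher by TPM, where 42.2% and 8.09% of all genes were. By exon reads 95 and 24 were (25.8% and 21.8% of all genes). By intron reads 54 and 24 were (29% and 27.3% of all genes). By limma on the log2 ratio 20 were below and 19 above (15.1% and 17.9% of all genes). The block left 2 KRAB members higher in exon reads.

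Of the values of named genes under the alternatives, 1819 kept direction and call, 70 lost the call, 15 gained it and 25 changed sign. Unique intron reads gave no value for ZNF23 and ZNF654, which had none. The log2 changes that turned sign were -0.011 for ZNF131, -0.226 for ZNF148, -0.292 for ZNF24, -0.027 for ZNF281, -0.364 for ZNF593, -0.315 for ZNF598, -0.22 for ZNF609, -0.207 for ZNF638, -0.216 for ZNF664 with total exon reads alone, and -0.013 for ZNF148, -0.27 for ZNF593, -0.03 for ZNF664 with the replicate block, and 0.117 for ZNF451, -0.23 for ZNF598, -0.047 for ZNF609 with junction reads, and -0.106 for ZNF593 with unique exon reads. With each library left out in turn, exon changes that turned sign ran from -0.013 to 0.248 for ZNF148, -0.003 to 0.107 for ZNF24, -0.111 to 0.033 for ZNF451, -0.657 to 0.296 for ZNF593, -0.018 to 0.077 for ZNF598, -0.005 to 0.225 for ZNF609, -0.026 to 0.258 for ZNF664. Genes of few intron reads and the shallow metformin replicate 1 limit the intron comparisons.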
